A study of Mus musculus with 6 samples.

Results

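The proteins described here write, read or act beside methylation of lysine 9 on histone H3 (H3K9), a mark of silenced chromatin. The members were 10 mouse genes fixed by name: Cbx1, Cbx5, Suv39h1, Suv39h2, Ehmt1, Ehmt2, Setdb1, Atf7ip, Trim28 and Kdm1a. Every probe set whose platform gene symbol was exactly one of these names was taken. This gave 26 of 45037 tested probe sets, for 9 of the 10 genes; no probe set used here carried the symbol Suv39h1, so that gene was not analysed here. Expression was measured on Affymetrix arrays in mouse embryonic stem (ES) cells. The parental group was a line hemizygous for Dppa4 (CI#84.2, 3 arrays) and the knockout group a line with Dppa4 knocked out (CI#243.12, 3 arrays). Both lines were kept on feeder fibroblasts from mouse embryos, and each group is thus 1 cell line. Dppa4 encodes a chromatin protein of pluripotent cells, and the comparison sets the knockout line against the hemizygous line. With 1 line in each group, loss of Dppa4 and other differences between the lines cannot be told apart.

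H3K9 methylation is written by Suv39h1 and Suv39h2, mainly in the heterochromatin around centromeres, by the partners Ehmt1 (GLP) and Ehmt2 (G9a), mainly in euchromatin, and by Setdb1. The mark is read by the heterochromatin proteins of the HP1 family, such as those encoded by Cbx1 (HP1 beta) and Cbx5 (HP1 alpha). In ES cells, Trim28 is recruited by zinc finger proteins to endogenous retroviruses and brings in Setdb1, which is stabilised by Atf7ip. Kdm1a removes methyl groups from histone H3 within the CoREST complex, and this group of repressors is known to keep retroviral, germ cell and 2-cell stage genes silent.

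Values are log2 expression after RMA (robust multi-array average), and differences are knockout minus parental on that scale, so that -1 is a halving of signal. Standard deviations (SD) are over 3 arrays, and standard errors (SE), 95% intervals and adjusted p-values are those of limma, adjusted over all 45037 probe sets. Dppa4 itself read 10.30, 10.35 and 10.45 on the parental arrays and 8.68, 8.84 and 8.68 on the knockout arrays; whether its probe set lies in the deleted part is not known here. Array medians lay between 4.21 and 4.25. Of 9 measured ES cell markers 0 passed the test of limma (1 lower and 0 higher at an unadjusted p under 0.05), with a median difference of -0.07. Over all genes, with 1 probe set each, 1158 of 18193 were lower and 848 higher at that unadjusted threshold. The array means of the ES cell markers were 10.93 to 10.97 in parental and 10.85 to 10.90 in knockout samples. Feeder fibroblast markers were abundant: 19 of 20 were measured and all 19 lay above background, with array means of 10.26 to 10.36 in parental and 10.36 to 10.49 in knockout samples. Of these 0 passed the test of limma (0 lower and 2 higher at an unadjusted p under 0.05), and the members of the list with the largest differences were Pdgfrb (0.27) and Lum (0.25). In such mixed cultures, fewer ES cells and less RNA per ES cell cannot be told apart.

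Most probe sets of the repressor genes had no called difference between the lines, which does not show that they were equal. Among those not called, 95% intervals ran from -0.56 to -0.18 for Kdm1a 1426761_at and from 0.20 to 0.57 for Cbx1 1431773_at. Of the 26 probe sets, 1 passed the adjusted threshold of 0.05, for Cbx5, and it was lower in knockout cells; over all tested probe sets 0.333% were called lower and 0.0688% higher. The median difference was -0.07 over the 26 probe sets and 0.00 over all tested, and 18 of the 26 had a negative sign. Knockout and parental arrays did not overlap on 4 probe sets with lower knockout values (Cbx5 1454636_at, Suv39h2 1433996_at, Kdm1a 1426761_at and 1426762_s_at) and on 1 with higher values (Cbx1 1431773_at). Over all tested probe sets those shares were 7.52% and 6.71%. At an unadjusted p under 0.05, 5 were lower and 1 higher, where 5.19% and 4.3% of all were. Those 6 were the same probe sets with Setdb1 1451833_a_at and Atf7ip 1446323_at in place of Suv39h2 1433996_at. Of the 26 probe sets, 23 had a mean above the background level of 3.79 in at least 1 group.

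**Figure D1:**
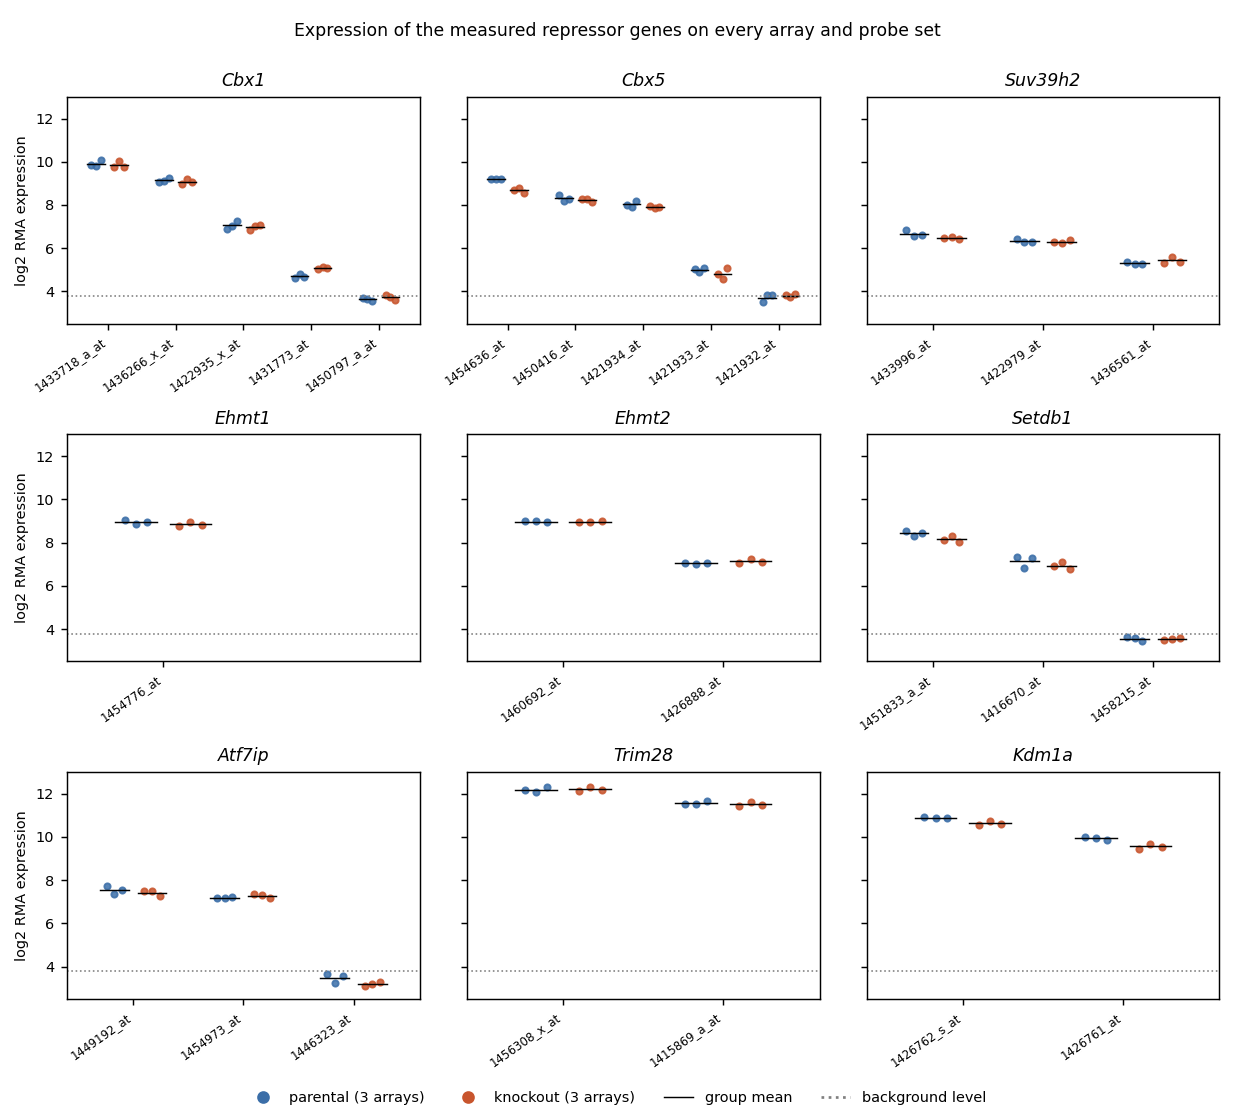
Log2 RMA expression (vertical axis) of each probe set (horizontal axis) of the 9 measured genes, with 3 parental and 3 knockout arrays as points, group means as black lines and the background level of 3.79 dotted. Knockout points lie below all parental points for Cbx5 1454636_at, both Kdm1a probe sets and, only just, Suv39h2 1433996_at, and above them for Cbx1 1431773_at.

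The promoters of the 3 genes with the largest differences above background, Cbx5, Cbx1 and Kdm1a, are shown for the sequence context of these genes. They are RefSeq windows (GRCm38.p6) from 250 bases before to 50 bases after the start, written 5′ to 3′ in lower case, with matches to the NRF1 motif in capitals. For Cbx5, which has 2 annotated starts in the table, the upstream window is given.

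Cbx5 (chr15:103239803-103240102, minus strand): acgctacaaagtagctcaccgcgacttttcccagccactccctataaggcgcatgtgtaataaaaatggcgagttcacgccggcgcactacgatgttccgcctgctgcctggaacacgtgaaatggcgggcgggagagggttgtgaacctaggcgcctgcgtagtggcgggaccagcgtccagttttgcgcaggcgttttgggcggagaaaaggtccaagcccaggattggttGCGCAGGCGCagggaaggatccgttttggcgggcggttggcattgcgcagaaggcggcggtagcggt

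Cbx1 (chr11:96788885-96789184, plus strand): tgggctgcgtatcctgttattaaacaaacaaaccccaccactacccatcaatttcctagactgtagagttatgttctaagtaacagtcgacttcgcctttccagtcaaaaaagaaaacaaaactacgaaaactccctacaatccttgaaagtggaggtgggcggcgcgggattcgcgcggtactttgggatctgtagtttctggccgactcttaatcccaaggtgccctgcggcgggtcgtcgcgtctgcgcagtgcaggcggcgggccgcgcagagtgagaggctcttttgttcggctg

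Kdm1a (chr4:136602674-136602973, minus strand): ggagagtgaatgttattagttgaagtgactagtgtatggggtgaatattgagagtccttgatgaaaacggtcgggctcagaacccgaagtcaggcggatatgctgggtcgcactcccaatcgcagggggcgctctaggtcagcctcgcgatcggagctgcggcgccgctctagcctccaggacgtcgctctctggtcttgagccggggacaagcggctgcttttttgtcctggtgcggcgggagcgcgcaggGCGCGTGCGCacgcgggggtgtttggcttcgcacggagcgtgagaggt

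All 10 genes had an entry in that promoter table, 13 windows in all, with 8 to 40 CpG dinucleotides each and a median of 29. The median over 32851 windows of mouse genes was 7. NRF1 is a factor of CpG-rich promoters, and its motif was searched on both strands as GCGCA and GCGC separated by 1 base of any kind, a motif chosen after the sequences had been seen. It was found in 5 of the 13 windows, those of Cbx5, Suv39h1, Suv39h2, Ehmt1 and Kdm1a, against 4.6% of all windows and 13.3% of the 8701 windows with at least 20 CpG. Of the 13 windows, 10 had at least 20 CpG, and the match of Suv39h1 lay in a window with 15. The match of Cbx5 covered bases 234 to 243 of the window and that of Kdm1a bases 253 to 262, the latter read on the reverse strand. Cbx1 had no match. The GC box, GGGCGG, was found in 12 of the 13 windows, against 35.7% of all windows and 80.9% of the CpG-rich ones. The TATA box, TATAAA, was found in 0 of 13, against 13.6% and 3.67%. The YY1 motif, AANATGGCG, occurred in windows of Cbx5, Suv39h1 and Suv39h2, where 2.38% of all windows and 5.47% of the CpG-rich ones held it. Of the other motifs searched, CCAAT was found in 5 of the 13 windows (37.4% of all windows and 32.9% of the CpG-rich ones). The E2F motif TTTNNCGC was found in 2 (5.17% and 9.88%). The ETS motif CCGGAAG was found in 1 (8.86% and 19.6%) and the E-box CACGTG in 3 (7.15% and 11.6%). None of the NRF1 matches overlapped a match of the other motifs. These are matches of letters, and no binding was measured.

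The HP1 reader gene Cbx5 was lower in knockout cells on 1 of its 5 probe sets. On 1454636_at (chromosome 15) it read 9.18, 9.22 and 9.21 in parental and 8.68, 8.79 and 8.55 in knockout samples. All 3 knockout arrays lay below all parental arrays, and the parental arrays lay closer together than the knockout arrays. Cbx5 thus fell on this probe set by 0.53 (SE 0.08, 95% interval -0.72 to -0.34, adjusted p = 0.0461, limma), to 69.3% of the parental signal. Of all 45037 probe sets it ranked 173rd by p. The exact permutation p was 0.1, the smallest two-sided value that 3 arrays against 3 can give. The call was lost when any single array was left out (difference -0.59 to -0.47, adjusted p between 0.0598 and 0.179), with array medians subtracted (adjusted p = 0.0513) and with the feeder marker mean as a covariate (-0.49, SE 0.14, adjusted p = 0.475). That mean was 10.26 to 10.36 in parental and 10.36 to 10.49 in knockout samples, so it nearly follows the groups. With it the difference moved little, while its SE rose from 0.08 to 0.14.

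The other 4 probe sets of Cbx5, which carry the RefSeq accession NM_007626 where 1454636_at carries AV114188, did not pass. On 1450416_at the parental values were 8.45, 8.20 and 8.27 and the knockout values 8.29, 8.29 and 8.13, a difference of -0.07 (95% interval -0.28 to 0.14). On 1421934_at they were 7.99, 7.91 and 8.19 against 7.93, 7.88 and 7.91, a difference of -0.12 (-0.33 to 0.08). The groups overlapped on both, and likewise on 1421933_at (-0.19) and on 1421932_at (0.09), the last of which lay near background. The mean of all 5 probe sets differed by -0.16 (95% interval -0.31 to -0.02, adjusted p = 0.387 over 18193 genes).

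Within each array, 1454636_at was set against the other Cbx5 probe sets whose group means were above background. Since 1454636_at was picked for the size of its difference, these values are a description, with no test. It exceeded 1450416_at by 0.73, 1.02 and 0.94 in parental and by 0.39, 0.50 and 0.42 in knockout samples, and these ranges did not overlap. The mean change of this excess from parental to knockout samples was -0.46 against 1450416_at and -0.41 against 1421934_at, both without overlap. Against 1421933_at it was -0.34 and the groups overlapped. Which parts of the transcript each probe set reads is not given in the sources used here.

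Cbx1, the gene of HP1 beta, had 1 probe set on which the groups separated, with the opposite sign. Its brightest probe set, 1433718_a_at, read 9.85, 9.80 and 10.06 in parental and 9.77, 10.03 and 9.76 in knockout samples, a difference of -0.05 (95% interval -0.29 to 0.19). The groups overlapped there, as on 1436266_x_at (-0.08), 1422935_x_at (-0.06) and 1450797_a_at (0.09), whose group means were below background. The probe set 1431773_at, which carries the cDNA accession AK017608, read 4.62, 4.81 and 4.66 in parental and 5.04, 5.12 and 5.08 in knockout samples. Here all knockout arrays were above all parental arrays. The difference was 0.38 (SE 0.08, 95% interval 0.20 to 0.57), it did not pass the adjusted threshold (adjusted p = 0.130, limma) and its exact permutation p was 0.1. The same within-array description, again of a probe set picked for its difference, gave 0.43 against 1433718_a_at, 0.46 against 1436266_x_at and 0.45 against 1422935_x_at, each without overlap. The mean of the 5 probe sets differed by 0.06 (95% interval -0.10 to 0.22).

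**Figure D2:**
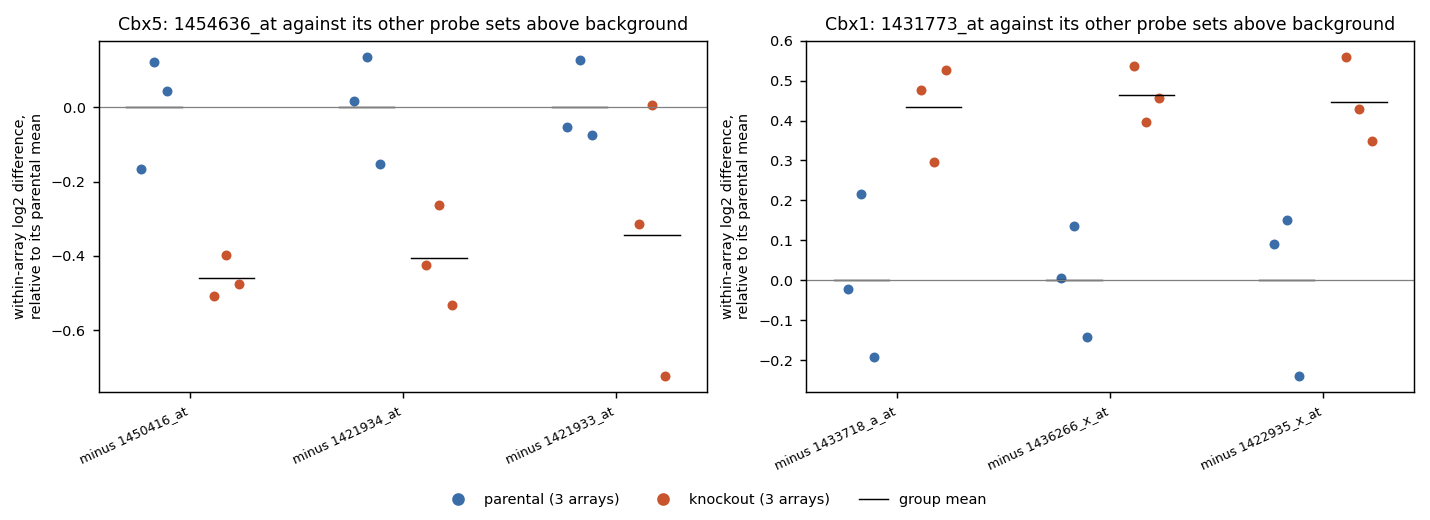
Within-array log2 difference (vertical axis, relative to its parental mean) between 1 probe set, picked for its difference, and each of the other 3 with group means above background (horizontal axis), for Cbx5 on the left and Cbx1 on the right, with 3 parental and 3 knockout arrays as points and group means as black lines. The knockout means lie at -0.46 to -0.34 for Cbx5 1454636_at, with overlap against 1421933_at, and at 0.43 to 0.46 for Cbx1 1431773_at.

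The writers of the mark showed no called difference. Suv39h2, a methyltransferase of pericentric heterochromatin, read 6.82, 6.55 and 6.61 in parental and 6.49, 6.53 and 6.41 in knockout samples on 1433996_at. The groups lay only just apart, and the difference of -0.18 (95% interval -0.39 to 0.03) did not pass (adjusted p = 0.588, limma). Its other probe sets differed by -0.03 (1422979_at) and 0.14 (1436561_at), with overlapping groups.

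Ehmt1 and Ehmt2 encode the partners GLP and G9a, which act as a heteromer. Ehmt1 had 1 probe set, which read 9.02, 8.87 and 8.94 in parental and 8.78, 8.94 and 8.80 in knockout samples, a difference of -0.10 (95% interval -0.29 to 0.08). Ehmt2 on 1460692_at read 8.99, 8.98 and 8.94 in parental and 8.96, 8.95 and 9.0 in knockout samples. Its difference was 0.00 with an interval of -0.16 to 0.16, and 1426888_at gave 0.10 (-0.08 to 0.27). The groups overlapped on all 3 probe sets of this pair of genes.

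Setdb1, the writer that acts with Trim28, had lower knockout means on both of its probe sets above background. On 1451833_a_at it read 8.53, 8.29 and 8.46 in parental and 8.10, 8.30 and 8.04 in knockout samples. Knockout replicate 2 lay just above parental replicate 2, so the groups overlapped, and the difference of -0.28 (SE 0.10, 95% interval -0.51 to -0.05) did not pass (adjusted p = 0.421, limma). On 1416670_at the values were 7.34, 6.81 and 7.27 against 6.91, 7.09 and 6.78, a difference of -0.21 (-0.55 to 0.12), and the same replicates of each group stood apart from the rest. Parental replicate 2 and knockout replicate 2 had feeder marker means of 10.36 and 10.36, the highest parental and the lowest knockout value. Their ES cell marker means were 10.97, the highest parental value, and 10.89, neither the highest nor the lowest knockout value. With the feeder marker mean as a covariate, 1451833_a_at differed by -0.06 and 1416670_at by 0.16 (adjusted p = 0.936 and 0.859, limma). The feeder mean nearly follows the groups, so feeder content and cell line cannot be told apart here. The part of feeders in the values of Setdb1 was not tested. The third probe set, 1458215_at, was below background.

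The adaptors of Setdb1 did not pass either. Atf7ip, which binds and stabilises Setdb1, read 7.74, 7.37 and 7.56 in parental and 7.48, 7.51 and 7.28 in knockout samples on 1449192_at, a difference of -0.13 (95% interval -0.39 to 0.12). On 1454973_at the difference had the opposite sign, 0.10 (-0.08 to 0.28). On 1446323_at it was -0.30 (-0.57 to -0.04, adjusted p = 0.464, limma), but all 6 values, 3.09 to 3.65, were under the background level. Trim28 (KAP1), the corepressor that zinc finger proteins recruit, read 12.17, 12.08 and 12.30 in parental and 12.13, 12.31 and 12.16 in knockout samples on 1456308_x_at. The difference was 0.02 with an interval of -0.19 to 0.22, and 1415869_a_at gave -0.05 (-0.24 to 0.14). Differences of Trim28 beyond 0.24 in either direction thus lay outside both intervals.

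The demethylase gene Kdm1a (LSD1) had lower knockout values on both of its probe sets. On 1426761_at it read 9.98, 9.96 and 9.85 in parental and 9.46, 9.66 and 9.55 in knockout samples. On 1426762_s_at it read 10.94, 10.87 and 10.87 in parental and 10.57, 10.74 and 10.60 in knockout samples. On both, the highest knockout array was below the lowest parental array, with an exact permutation p of 0.1. The differences were -0.37 (SE 0.08, 95% interval -0.56 to -0.18, 77.2% of parental) and -0.26 (SE 0.08, -0.44 to -0.08, 83.7% of parental). Neither passed over all probe sets (adjusted p = 0.163 and 0.328, limma). With an intensity trend and a robust prior, 1426761_at did pass (adjusted p = 0.0430). With the feeder marker mean as a covariate the differences were -0.29 and -0.15 (adjusted p = 0.630 and 0.790). The mean of both probe sets differed by -0.32 (SE 0.07, 95% interval -0.48 to -0.15, adjusted p = 0.127).

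**Figure D3:**
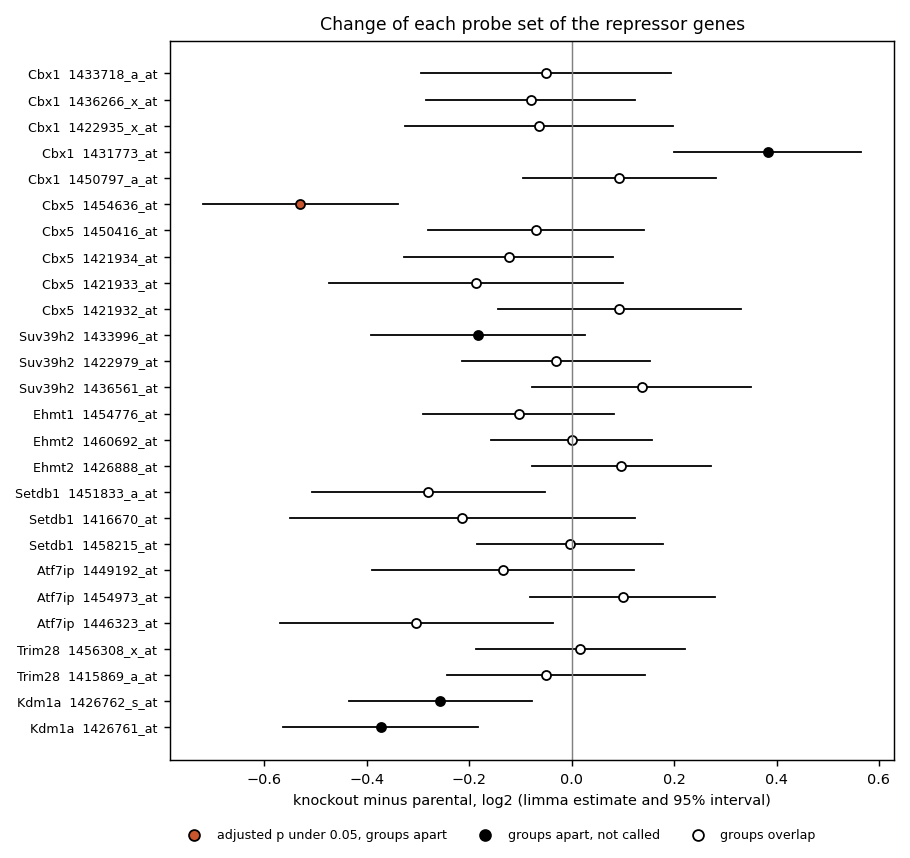
Difference of each of the 26 probe sets (vertical axis) as knockout minus parental on the log2 scale (horizontal axis), with limma's estimate as a point and its 95% interval as a line. The called probe set, Cbx5 1454636_at at -0.53, is filled in colour, the other 4 without overlap between groups are black, and the remaining 21 are open.

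Other genes of the pathway were read from 7 lists, with 1 probe set a gene, the brightest. Of 52 measured genes out of 57, 0 passed the test of limma, where 0.605% of 18193 genes passed. At an unadjusted p of limma under 0.05, 3 were lower and 2 higher, where 1158 and 848 of the 18193 genes were. The median difference of the 52 genes was -0.02, against 0.00 over all genes. In the CoREST list (0 of 9 called), Rcor2, a CoREST scaffold that binds Kdm1a, read 7.92, 8.01 and 8.01 in parental and 7.48, 7.73 and 7.45 in knockout samples. The groups did not overlap, and the difference was -0.43 (SE 0.09, adjusted p = 0.156, limma), beside -0.37 and -0.26 on the Kdm1a probe sets. Its paralogues had the opposite sign. Rcor3 differed by 0.23 (adjusted p = 0.670, limma) with overlapping groups, and Rcor1 by 0.19 (adjusted p = 0.526, limma) without overlap. Rcor1 was named after its value was seen.

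The remaining lists held 0 calls each. Among 5 other H3K9 methyltransferases, Setmar, a SET domain gene less firmly tied to this mark, differed by -0.37 (adjusted p = 0.199, limma) without overlap and Mecom by 0.23. Among 11 H3K9 demethylases, Jmjd1c differed by 0.26 (adjusted p = 0.526) and Kdm7a by -0.22 (adjusted p = 0.490), each without overlap. Of 11 HP1 family members and partners, the third HP1 gene, Cbx3, differed by 0.12, the lamin B receptor gene Lbr by 0.14 and the chromatin remodeller gene Atrx by 0.14. The 1 probe set of Cbx3 used here read 4.11 to 4.40, near the background level of 3.79. Among 4 partners of G9a and GLP, Wiz differed by 0.10 and Cdyl by -0.06. Of 8 partners of Setdb1 and Trim28, Zfp57, a zinc finger protein that recruits Trim28 to imprinted loci, differed by -0.11 and the DNA methyltransferase gene Dnmt1 by -0.08. In the HUSH complex, which silences retroelements with Setdb1, Pphln1 differed by 0.17 and Mphosph8 by 0.05 among 4 members. Cbx3 was named after its value was seen.

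**Figure D4:**
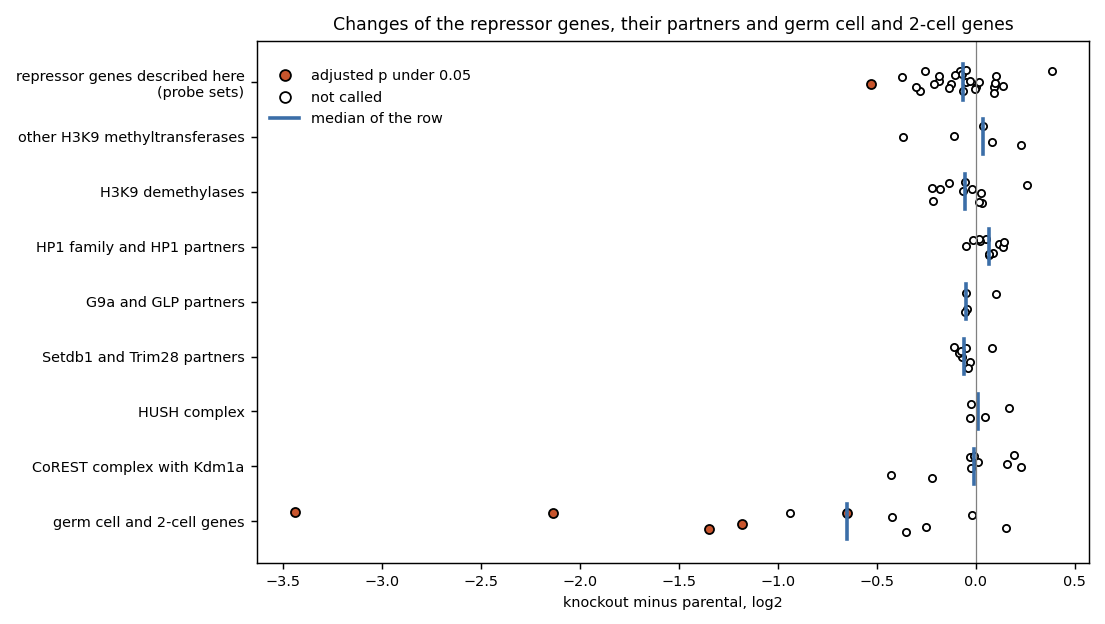
Knockout minus parental difference on the log2 scale (horizontal axis) of the 26 member probe sets, of the genes in 7 lists of partners and related enzymes, and of germ cell and 2-cell genes (rows), with medians as blue lines and called items filled. The 7 lists lie between -0.43 and 0.26 with 0 calls, and 5 germ cell and 2-cell genes are called, down to -3.44 for Mael.

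Germ cell and 2-cell stage genes, the kind that these repressors are known to silence in ES cells, were read from a list of 17, of which 11 were measured. Of these 5 fell, 0 rose and 6 did not pass, with a median of -0.65, where 0.511% of all genes were called lower and 0.0934% higher. The list was drawn up with earlier results of these arrays known, so its direction is not independent evidence. Mael, a piRNA pathway gene, was at least 7.98-fold lower and the germ cell gene Dazl, whose product binds RNA, at least 3.09-fold, against the background level. The mitochondrial carrier gene Slc25a31 (at least 1.15-fold) and the testis cytochrome gene Cyct (at least 1.55-fold) also fell. So did Tcstv3 (-0.65, adjusted p = 0.00887, limma), which was below background in both groups; Cyct and Tcstv3 were named after their values were seen. Of the other 2-cell stage genes, Zfp352 read 4.65, 4.94 and 5.16 in parental against 3.64, 4.14 and 4.15 in knockout samples, without overlap (-0.94, adjusted p = 0.0774, limma), and Tcstv1 was below background (-0.35, adjusted p = 0.301). Without parental replicate 1 or knockout replicate 1 the calls of Tcstv3 (adjusted p = 0.0589 and 0.0548) and Cyct (adjusted p = 0.0780 and 0.103) were lost, and that of Cyct also without knockout replicate 3 (adjusted p = 0.0995, limma). The replicate block also ended both calls (adjusted p = 0.0720 for Tcstv3 and 0.0921 for Cyct). With the feeder marker mean as a covariate Mael and Dazl passed, while Slc25a31 (adjusted p = 0.0524), Cyct (0.427) and Tcstv3 (0.298) did not. Wfdc15a differed by 0.15 with overlapping groups.

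Markers of other cells and of growth were read beside these values. Of 7 endothelial and blood markers, Tek, the angiopoietin receptor gene, fell from 5.98 ± 0.18 to 4.42 ± 0.29 (SD, n = 3; adjusted p = 0.00469, limma), and the other 6 did not pass. Of all 18193 genes, 0.511% were called lower. With the feeder covariate the call of Tek was lost (-1.70, adjusted p = 0.151, limma). Pecam1, an endothelial marker that ES cells also express, read 6.57, 6.61 and 6.21 in parental and 5.44, 5.84 and 5.99 in knockout samples (-0.71, adjusted p = 0.169, limma), without overlap. Kdr (-0.23) and the macrophage marker Cd68 (0.19) were above background with overlapping groups, and Cdh5, Ptprc and Hba-a1 lay below background in both groups. The list's array means were 4.75 to 4.82 in parental and 4.42 to 4.59 in knockout samples, and their part in the results was not tested. Of 12 DNA replication genes 0 passed the test of limma (1 lower and 0 higher at an unadjusted p under 0.05). Their median difference was -0.11, and the members with the largest differences were Mcm4 (-0.23) and Mcm5 (-0.14). Of the 9 ES cell markers, 4 were lower and 1 higher in knockout samples without overlap, where 1658 and 1315 of 18193 genes were. Nanog differed by -0.49 (adjusted p = 0.122, limma) and Esrrb by -0.18, both without overlap. The difference of Nanog was close in size to that of Cbx5 1454636_at. The part of growth or of ES cell state in the values of Cbx5 and Kdm1a was not tested.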

How the data were processed

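The authors deposited a table of log2 values for 6 arrays, made with RMA per the submitters' processing notes; RMA software, settings and chip definition are not stated there. The log2 scale was read from the values, 2.12 to 13.98. RMA equalises the distributions of arrays, so a general shift would not be seen. After removal of 64 control probe sets, limma 3.58.1 (R 4.3.3; lmFit and eBayes, two-sided) was fitted to 45037, with Benjamini-Hochberg adjustment over all of them and a threshold of 0.05. Symbols came from the platform annotation (1 gene for 34945 probe sets, several for 932, none given for 9160). For list genes they were updated through a RefSeq gene table of GRCm38.p6, in which 34741 probe sets matched. Coordinates are printed for promoter windows only.

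Background was set at the 95th percentile of mean signal over 78 probe sets of olfactory and vomeronasal receptors. A fold is written as a bound where each dimmer array lay at or below background. The number of arrays limits the precision. Named were all member probe sets and Dppa4. Each list added up to 3 genes that passed, did not overlap and lay above background, or else the 2 with the largest differences above background. The members and lists were chosen with earlier results of these data known. The labels do not mention separate cultures, so p-values measure the spread between these samples only, and this spread may be technical. The procedure was tested on simulated data whose added differences were all larger than those of the member probe sets, so that test does not cover differences of their size. Alternatives covered renewed quantile normalization, median centring, the replicate number as block, a variance trend with robust prior, dim or cross-hybridising (x_at, s_at) probe sets left out, no moderation, a feeder covariate, gene means and each array left out. The feeder covariate nearly follows the groups, so a call lost with it does not tell feeder content from cell line.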

Additional observations from a re-analysis of the deposited data

How the results depend on the processing

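Cbx5 1454636_at kept its negative sign under every alternative run but its call under few. The 1 member probe set called became 0 with array medians subtracted, with the replicate block, without moderation, with the feeder marker covariate and without any single array (0 to 0). It became 2 with the trend and robust prior, which added Kdm1a 1426761_at. Over the whole table the 181 calls became 88 with the replicate block, 312 with the trend and robust prior, 1 without moderation, 24 with the feeder covariate, and 70 to 112 when a single array was left out. The 6 calls in the gene lists became 0 without moderation and 2 with the feeder covariate; the replicate block ended those of Tcstv3 and Cyct (adjusted p = 0.0720 and 0.0921, limma). Replicate numbers showed no pairing of arrays (correlations of deviations 0.112, -0.364 and -0.287), and with that block Cbx5 1454636_at gave -0.53 (adjusted p = 0.186, limma). Averaged over its probe sets, Cbx5 gave -0.16 (0.387).

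Signs of small differences turned, none of them called. With the feeder covariate these were Cbx1 1433718_a_at (0.17), 1436266_x_at (0.057) and 1422935_x_at (0.082), Cbx5 1450416_at (0.017) and 1421932_at (-0.048), Suv39h2 1422979_at (0.0059), Ehmt1 1454776_at (0.045), Setdb1 1416670_at (0.16), Atf7ip 1449192_at (0.036) and Trim28 1415869_a_at (0.085). Setdb1 1458215_at, at -0.0033 in the reported fit and below background, turned with renewed quantile normalization (0.01) and with array medians subtracted (0.0033). Gene means, set against the brightest probe set of each gene, had the other sign for Cbx1 (0.057) and Trim28 (-0.017). A gene mean takes in the dimmer probe sets too, so it is a different quantity. Without 1 array the ranges spanned 0 for Cbx1 1433718_a_at (-0.14 to 0.028) and 1422935_x_at (-0.15 to 0.038), Cbx5 1450416_at (-0.12 to 0.0017) and 1421932_at (-0.013 to 0.15), Suv39h2 1422979_at (-0.06 to 0.025), Ehmt2 1460692_at (-0.015 to 0.01), Setdb1 1458215_at (-0.058 to 0.032) and Trim28 1456308_x_at (-0.038 to 0.075). The causes of the turns of single probe sets were not tested. Of 351 values under alternatives whose reported difference was not 0, 325 kept their sign and 313 kept both sign and side of the threshold.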
